A study of Danio rerio with 11 samples.

Results

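Chemokines, interleukins, the tumour necrosis factor (TNF) family and their receptors were examined in full-grown ovarian follicles of zebrafish (Danio rerio). Genes were taken by symbol: chemokine ligands (ccl, cxcl) and receptors (ccr, cxcr, ackr), interleukins and their receptors (il), and TNF ligands and receptors (tnfsf, tnfrsf, tnfa and tnfb). Of 35889 genes in the deposited count table, 148 have such a symbol, and the 77 with 10 or more counts in at least 3 of the 11 libraries are the members described here. They carry 76 different symbols, because il4r.1 is listed under 2 gene identifiers. By role they are 17 chemokine ligands, 15 chemokine receptors, 9 interleukin ligands, 22 interleukin receptors, 6 TNF ligands and 8 TNF receptors.

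The study removed the gonadotropin luteinising hormone (beta subunit gene lhb) or follicle-stimulating hormone (fshb) together with the luteinising hormone receptor (lhcgr) and sequenced mRNA of the follicles. The lhb/lhcgr mutants (4 libraries) have the genotype lhb-/-;lhcgr-/- and are heterozygous for fshb and fshr. The fshb/lhcgr mutants (4 libraries) are fshb-/-;lhcgr-/- and heterozygous for lhb and fshr, the follicle-stimulating hormone receptor gene. The controls (3 libraries) are not wild type but heterozygous at all 4 genes, and so no group has 2 intact copies of fshb, lhb, fshr or lhcgr, and all 3 groups are fshr+/-. The females were 180 days old (counted from fertilisation), and follicles larger than 650 µm were enriched on a filter of 600 µm and picked by hand. Neither the kind of allele at each locus nor whether replicates are different fish is stated in the labels, so p-values measure the spread between these libraries, which may be technical.

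Chemokines are small secreted proteins that guide migrating cells through G protein-coupled receptors, while atypical receptors (ackr genes) bind chemokines and remove them without that signal. Many interleukin receptors pair a subunit specific to the ligand with a shared one and signal through JAK kinases and STAT factors, whereas TNF receptors act through TRAF and death domain adaptors on NF-kB and cell death. In the ovary these proteins are known from resident immune cells, from the vessels and stroma of the follicle wall, and from granulosa cells around ovulation, a process with features of inflammation.

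The libraries held between 14179252 counts (fshb/lhcgr mutant 3) and 25484718 counts (lhb/lhcgr mutant 3). The mutated lhcgr kept its mRNA, with 1899 to 5051 counts in lhb/lhcgr mutants, 1645 to 2458 in fshb/lhcgr mutants and 1645 to 4735 in controls, and lhb had 10 to 160, 25 to 97 and 294 to 537 counts in the same order. Neither checks the labels further, since the alleles are not described. Lhb/lhcgr mutant 3 and 4 were the most alike pair of libraries, and several results below are given without them. Expression is in CPM, the gene's share of its library's counts times 1e6 after TMM scaling. Means carry the SD over the 4, 4 and 3 libraries, and levels of different genes are compared only in FPKM, which divides by gene length. A gene is called when its Benjamini-Hochberg adjusted p in edgeR's quasi-likelihood test is under 0.05 over all 19421 genes tested, and a log2 difference (with its standard error, SE) is positive where the group named first is higher. These are bulk libraries of whole follicles, in which fewer cells of a type and less RNA per cell cannot be told apart.

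Most members were expressed at low levels. The median member had a mean of 1.85 FPKM over the 11 libraries, against 4.9 FPKM over all tested genes. Only 7 members exceeded 10 FPKM, 43 lay between 1 and 10 FPKM, and 27 were under 1 FPKM. The highest mean level was that of tnfsf10l4 (33.6 FPKM), a gene of the TRAIL type of death ligand, followed by ackr4b (32.4 FPKM), whose product in mammals scavenges Ccl19, Ccl21 and Ccl25. Next came tnfrsfa (18 FPKM), cxcl14 (13.1 FPKM), tnfsf10 (12.3 FPKM), the interleukin-13 decoy receptor gene il13ra2 (11.5 FPKM), ccl34a.4 (11.4 FPKM) and il13ra1 (9.21 FPKM). In 13 members at least 1 library had 0 counts. The libraries of a group varied more in these genes than in the rest of the transcriptome. The median coefficient of variation over tested members was 0.467 in lhb/lhcgr mutants, 0.417 in fshb/lhcgr mutants and 0.48 in controls, against 0.239, 0.273 and 0.303 over all tested genes. The comparison is not matched for expression level.

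**Figure D1:**
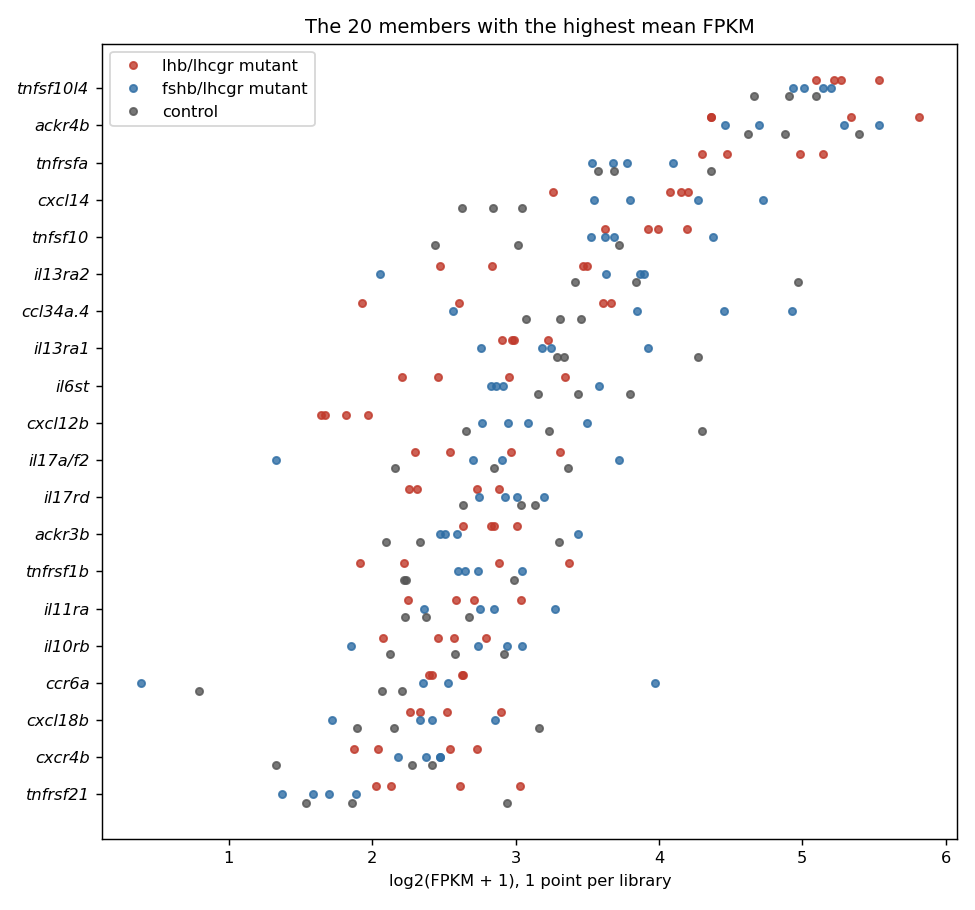
Levels of the 20 members with the highest mean FPKM. The horizontal axis is log2(FPKM + 1), each point is 1 library, and red, blue and grey mark lhb/lhcgr mutants, fshb/lhcgr mutants and controls. Tnfsf10l4 and ackr4b lead, with means of 33.6 and 32.4 FPKM over all libraries.

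The rule's threshold leaves out some well-known cytokines. Just inside it stands il2rgb, whose third-highest library has 10 counts and which did not pass the expression filter, leaving 76 members tested. Just outside are tnfrsf18 with 9 counts and tnfa, tnfsf13b, cxcl8b.1, cxcl11.1, ccl44 and ccl38.1 with 8 counts in that library. Of the 71 genes left out, 18 had 0 counts in all libraries and none had more than 75 counts in sum. The inflammatory cytokine gene tnfa had 31 counts over the lhb/lhcgr mutants, 2 over the fshb/lhcgr mutants and 4 over the controls, and il6 had 11, 1 and 0. Both are too few for a test. Only il11a reached 10 counts in libraries of a single group, namely in 3 lhb/lhcgr mutant libraries.

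In lhb/lhcgr mutants against controls, 5 of the 76 tested members were called. Tnfsf12, il17rc and cxcl14 rose, and cxcl12b and ccl19a.2 fell. Over all tested genes 7.34% were called in this comparison, 2.89% as higher and 4.45% as lower, so that 3 higher and 2 lower members of 76 are near the background. The median log2 difference of the members was 0.21, with 50 of 76 positive, against a median of 0.01 and 50.7% positive over all tested genes. The groups did not overlap in 8 members that lay above and 5 that lay below the controls, beside 22.8% of all tested genes without overlap (il11a is among the 8 through its selection). The member rule also favours the direction of il17rc, among the 8, and of ccl19a.2, among the 5. Both are among the called members too. The count of 5 was 2 without lhb/lhcgr mutant 4 or without control 1, 3 without lhb/lhcgr mutant 3 or without control 3, and leaving out both lhb/lhcgr mutant 3 and 4 left 1, tnfsf12.

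In fshb/lhcgr mutants against controls, 11 of the 76 members had an unadjusted p under 0.05 in edgeR, beside 2291 of all 19421 tested genes. EdgeR called 0 of the 76 members, limma-voom called 0 and DESeq2 called 1 (cxcl14). The background was low as well, with 0.0721% of all tested genes called, 0.0154% as higher and 0.0566% as lower. The median log2 difference of the members was 0.19, against -0.03 over all tested genes. In 7 members the fshb/lhcgr mutants lay wholly above the controls and in 1 wholly below, beside 10.4% of all tested genes without overlap. Il17rc, whose direction the member rule favours, is among the 7.

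In fshb/lhcgr mutants against lhb/lhcgr mutants, 4 members were called. Cxcl12b and ccl19a.2 were higher in fshb/lhcgr mutants, and tnfsf12 and tnfrsfa were lower. Over all tested genes 2.37% were called, 1.45% as higher and 0.917% as lower. The members' median log2 difference was -0.01, against -0.02 over all tested genes. Groups without overlap were found in 4 members lying above and 6 lying below, beside 12.9% of all tested genes (il11a is among the 6 through its selection). Ccl19a.2, among the 4 and among the called members, has a direction that the member rule favours. The count of 4 was 1 without lhb/lhcgr mutant 3, without lhb/lhcgr mutant 4 or without fshb/lhcgr mutant 3. It was 2 without lhb/lhcgr mutant 2 or without fshb/lhcgr mutant 1, 2 or 4, and 0 without both lhb/lhcgr mutant 3 and 4. The comparisons share libraries and are not independent of each other.

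**Figure D2:**
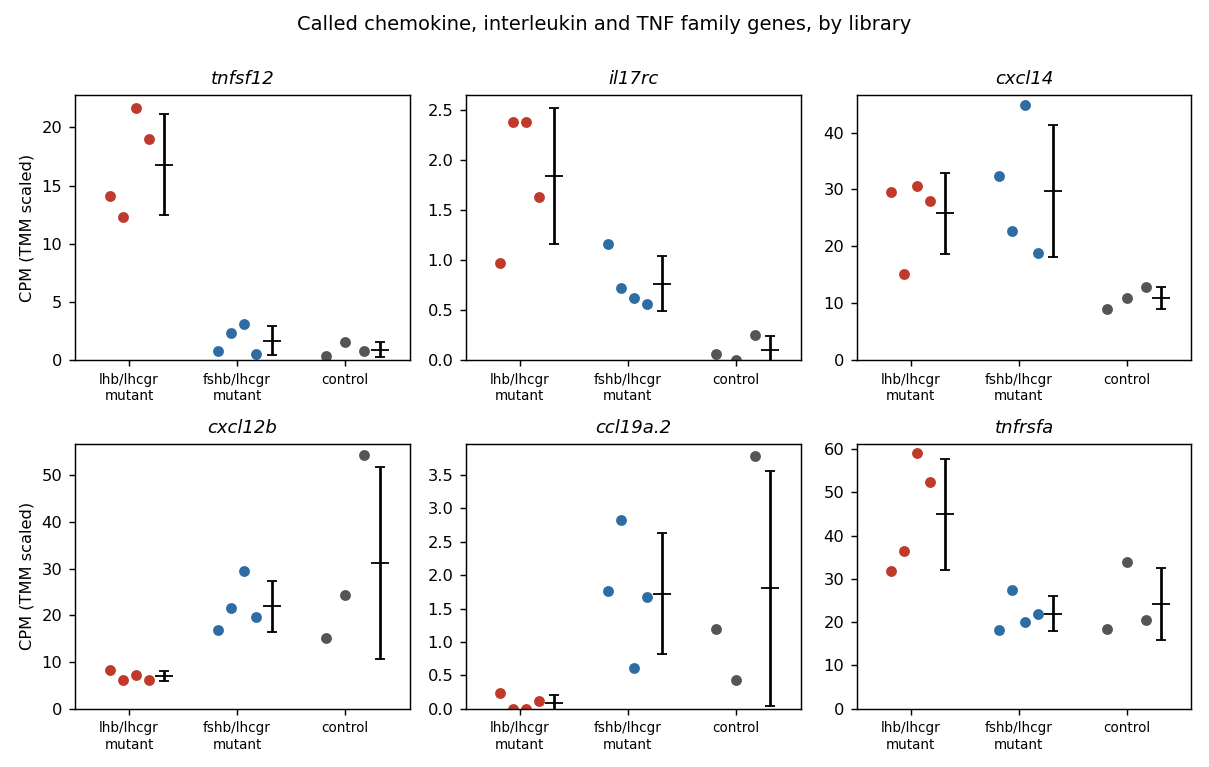
The 6 members called in any comparison, in CPM by library. Each point is a library, with lhb/lhcgr mutants left, fshb/lhcgr mutants in the middle and controls right, and the black mark and bar beside each group are its mean and SD. Tnfsf12 stands between 12.3 and 21.7 CPM in lhb/lhcgr mutants and no higher than 3.09 CPM in any other library.

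Among the 17 chemokine ligands, 1 rose and 2 fell in lhb/lhcgr mutants against controls. Over all tested genes, 2.89% were called as higher and 4.45% as lower. The 2 ligands that fell were a homeostatic chemokine, cxcl12b, and a lymphoid one, ccl19a.2. Cxcl12b (ENSDARG00000055100) encodes 1 of the zebrafish Cxcl12 ligands of Cxcr4, which direct the migration of germ cells and of vessel-forming cells. It had 8.39, 6.17, 7.32 and 6.26 CPM in lhb/lhcgr mutants, 16.9, 21.6, 29.6 and 19.6 CPM in fshb/lhcgr mutants, and 15.1, 24.4 and 54.4 CPM in controls. All 4 lhb/lhcgr mutants lay below all other libraries, whereas fshb/lhcgr mutants and controls overlapped. Cxcl12b fell to 7.04 ± 1.04 CPM in lhb/lhcgr mutants, against 31.3 ± 20.5 CPM in controls (log2 difference -2.15, SE 0.36, adjusted p = 0.00635). The fall was smaller without control 3 (-1.49), and the call held without any 1 library. It was lost without both lhb/lhcgr mutant 3 and 4 (-2.10, adjusted p = 0.0731).

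Between the mutants, cxcl12b was higher in fshb/lhcgr mutants, at 21.9 ± 5.44 CPM, than in lhb/lhcgr mutants (log2 difference 1.64, SE 0.34, adjusted p = 0.0239). Leaving out lhb/lhcgr mutant 2 ended that call (adjusted p = 0.0508), as did leaving out lhb/lhcgr mutant 3 (0.0742), lhb/lhcgr mutant 4 (0.0894) or fshb/lhcgr mutant 3 (0.0748). It was also lost in limma-voom (0.0534) and without both lhb/lhcgr mutant 3 and 4 (0.222). Against controls, the fshb/lhcgr mutants differed by -0.52 in log2 (adjusted p = 0.595). The summed level of 11 endothelial markers was 90.7 to 100 CPM in lhb/lhcgr mutants, 116 to 222 CPM in fshb/lhcgr mutants and 146 to 248 CPM in controls. Of these markers 2 fell in lhb/lhcgr mutants against controls, beside 4.45% of all tested genes. They were the vascular growth factor receptor genes kdrl (-1.51, adjusted p = 0.00518) and flt1 (-1.79, adjusted p = 0.0126). In fshb/lhcgr mutants 2 were higher than in lhb/lhcgr mutants, beside 1.45% of all tested genes. The median log2 difference of the 11 markers was -0.60 in the first comparison and 0.35 in the second. Markers of theca and stroma summed to 483 to 509 CPM in lhb/lhcgr mutants, 764 to 1370 CPM in fshb/lhcgr mutants and 524 to 1010 CPM in controls. Of these 9 markers, 3 fell in lhb/lhcgr mutants against controls, and 4 were higher in fshb/lhcgr mutants than in lhb/lhcgr mutants. The shares of all tested genes are those given for the endothelial markers. The part of either cell type in the cxcl12b difference was not tested.

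The other genes of this axis were not called in any comparison. The paralog cxcl12a had 7, 4.58, 11.4 and 12.6 CPM in lhb/lhcgr mutants, 4.23, 6.13, 3.94 and 3.71 CPM in fshb/lhcgr mutants, and 2.68, 7.17 and 5.55 CPM in controls. Its log2 difference of lhb/lhcgr mutants from controls was 0.80 (SE 0.42, adjusted p = 0.269), of the opposite sign to that of cxcl12b. The receptor gene cxcr4b ranged from 4.53 to 9.62 CPM in lhb/lhcgr mutants, 6.07 to 7.72 CPM in fshb/lhcgr mutants and 2.54 to 7.45 CPM in controls. Its second copy, cxcr4a, did not exceed 1.87 CPM in any library. The scavenger receptor gene ackr3b, whose product removes Cxcl12, had 10.3 to 14.0 CPM in lhb/lhcgr mutants, 9.10 to 19.5 CPM in fshb/lhcgr mutants and 6.56 to 17.7 CPM in controls. Thus all 3 receptor genes overlapped between all groups.

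Ccl19a.2 (ENSDARG00000035632) is a homolog of Ccl19, the ligand that draws lymphocytes and dendritic cells through Ccr7. It was nearly silent in lhb/lhcgr mutants, with 4, 0, 0 and 2 counts. The fshb/lhcgr mutants had 26, 43, 8 and 27 counts and the controls 18, 6 and 60 counts. Every lhb/lhcgr mutant lay below every other library. No lhb/lhcgr mutant reached the 10 counts of the member rule, which favours a lower level in this group. The differences of lhb/lhcgr mutants from both other groups, with their ratios, intervals and p-values, are thus not free of the selection. The fall against controls was 23.8-fold in summed, scaled counts (95% interval 10.5 to 66.8, counting error only), or -4.31 in log2 (SE 1.05, adjusted p = 0.0287). Against lhb/lhcgr mutants, the fshb/lhcgr mutants were 22.5-fold higher (9.99 to 62.7), or 4.24 in log2 (SE 1.02, adjusted p = 0.0463). Between fshb/lhcgr mutants and controls the log2 difference was -0.07 (SE 0.88, adjusted p = 0.985).

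These calls rest on few counts. The fall was lost without lhb/lhcgr mutant 2 (adjusted p = 0.0537), 3 (0.0599) or 4 (0.0776), without control 1 (0.0580) or control 3, where it shrank to -3.18 (0.0997), in limma-voom (0.0698), with a replicate block (0.0769), and without both lhb/lhcgr mutant 3 and 4 (0.156). The difference between the mutants was lost without any 1 fshb/lhcgr mutant (adjusted p of 0.0644 to 0.0993), without lhb/lhcgr mutant 2 (0.0840), 3 (0.120) or 4 (0.125), with the block (0.0752), in limma-voom (0.0885), and without both lhb/lhcgr mutant 3 and 4 (0.275). Leaving out lhb/lhcgr mutant 1, which holds 4 of that group's counts, gave a log2 difference of -5.40 for lhb/lhcgr mutants against controls, and of 5.34 for fshb/lhcgr mutants against lhb/lhcgr mutants. A second gene, ccl19a.1, lies next to ccl19a.2 in the RefSeq order of genes, and how reads of near-identical copies were assigned is not given. Ccl19a.1 had 18, 33, 42 and 32 counts in lhb/lhcgr mutants, 15, 86, 13 and 15 counts in fshb/lhcgr mutants, and 36, 74 and 91 in controls (-1.44 for lhb/lhcgr mutants against controls, SE 0.63, adjusted p = 0.175). The receptor gene ccr7 was below the threshold, with 2, 15 and 0 counts summed over lhb/lhcgr mutants, fshb/lhcgr mutants and controls.

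Cxcl14 (ENSDARG00000056627), a conserved homeostatic chemokine, had higher values in every mutant library than in the controls. It had 29.5, 15.2, 30.6 and 27.9 CPM in lhb/lhcgr mutants, 32.4, 22.7, 44.8 and 18.9 CPM in fshb/lhcgr mutants, and 9.04, 10.9 and 12.9 CPM in controls. All 8 mutant libraries lay above all 3 controls, and the mutants overlapped each other. In lhb/lhcgr mutants cxcl14 rose to 25.8 ± 7.17 CPM, against 10.9 ± 1.91 CPM in controls (log2 difference 1.24, SE 0.32, adjusted p = 0.0361). The average in fshb/lhcgr mutants was 29.7 ± 11.6 CPM, a log2 difference of 1.44 (SE 0.32) that was not called by edgeR (adjusted p = 0.147) and was called by DESeq2 (0.00367). The call in lhb/lhcgr mutants was fragile. It was lost without lhb/lhcgr mutant 1 (adjusted p = 0.0756), 3 (0.0766) or 4 (0.0950), fshb/lhcgr mutant 1 (0.0502), or control 1 (0.128), 2 (0.0645) or 3 (0.0501), with an offset for gene length (0.0665), in limma-voom (0.0605), and without both lhb/lhcgr mutant 3 and 4 (0.192). The log2 difference stayed between 1.03 and 1.42 over all alternatives tried.

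The remaining chemokine ligands were not called. The fish-specific ccl34b.8 is the nearest to a call, between the mutants, with 3, 46, 15 and 20 counts in fshb/lhcgr mutants against 0, 1, 5 and 2 in lhb/lhcgr mutants, while the controls had 3, 12 and 18. The log2 difference of fshb/lhcgr mutants from lhb/lhcgr mutants was 3.75 (SE 0.99, adjusted p = 0.0639 in edgeR and 0.00598 in DESeq2). Here too no lhb/lhcgr mutant reached the 10 counts of the member rule, which favours this direction. Ccl34a.4 had 1.51 to 6.31 CPM in lhb/lhcgr mutants, 2.66 to 15.8 CPM in fshb/lhcgr mutants and 4.03 to 5.35 CPM in controls. The neutrophil attractant gene cxcl18b overlapped between all groups, at 4.28 to 7.18, 2.55 to 6.99 and 3.05 to 8.95 CPM. Summed over the 17 ligands, the libraries held 45.8 to 76.2 CPM in lhb/lhcgr mutants, 70.8 to 108 CPM in fshb/lhcgr mutants and 50.3 to 107 CPM in controls.

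None of the 15 chemokine receptors was called in any comparison by edgeR. An unadjusted p under 0.05 was found for 1 in lhb/lhcgr mutants against controls, 2 in fshb/lhcgr mutants against controls and 1 between the mutants. Over all 19421 tested genes, 4829, 2291 and 3502 had such a p, in the same order. Ackr4b makes up most of the class and set its pattern over libraries. It had 73.3, 73.7, 207 and 147 CPM in lhb/lhcgr mutants, 94.2, 143, 170 and 79.3 CPM in fshb/lhcgr mutants, and 106, 154 and 89.2 CPM in controls. The spread within each group was thus larger than any difference between groups (log2 differences from controls of 0.11 in lhb/lhcgr mutants, 0.06 in fshb/lhcgr mutants). Cxcr3.3, a receptor gene of the Cxcr3 type, had 1.39 to 2.49 CPM in lhb/lhcgr mutants, 0.857 to 1.30 CPM in fshb/lhcgr mutants and 1.49 to 3.72 CPM in controls. All fshb/lhcgr mutants lay below both other groups, without a call (-1.22 against controls, SE 0.47, adjusted p = 0.354).

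**Figure D3:**
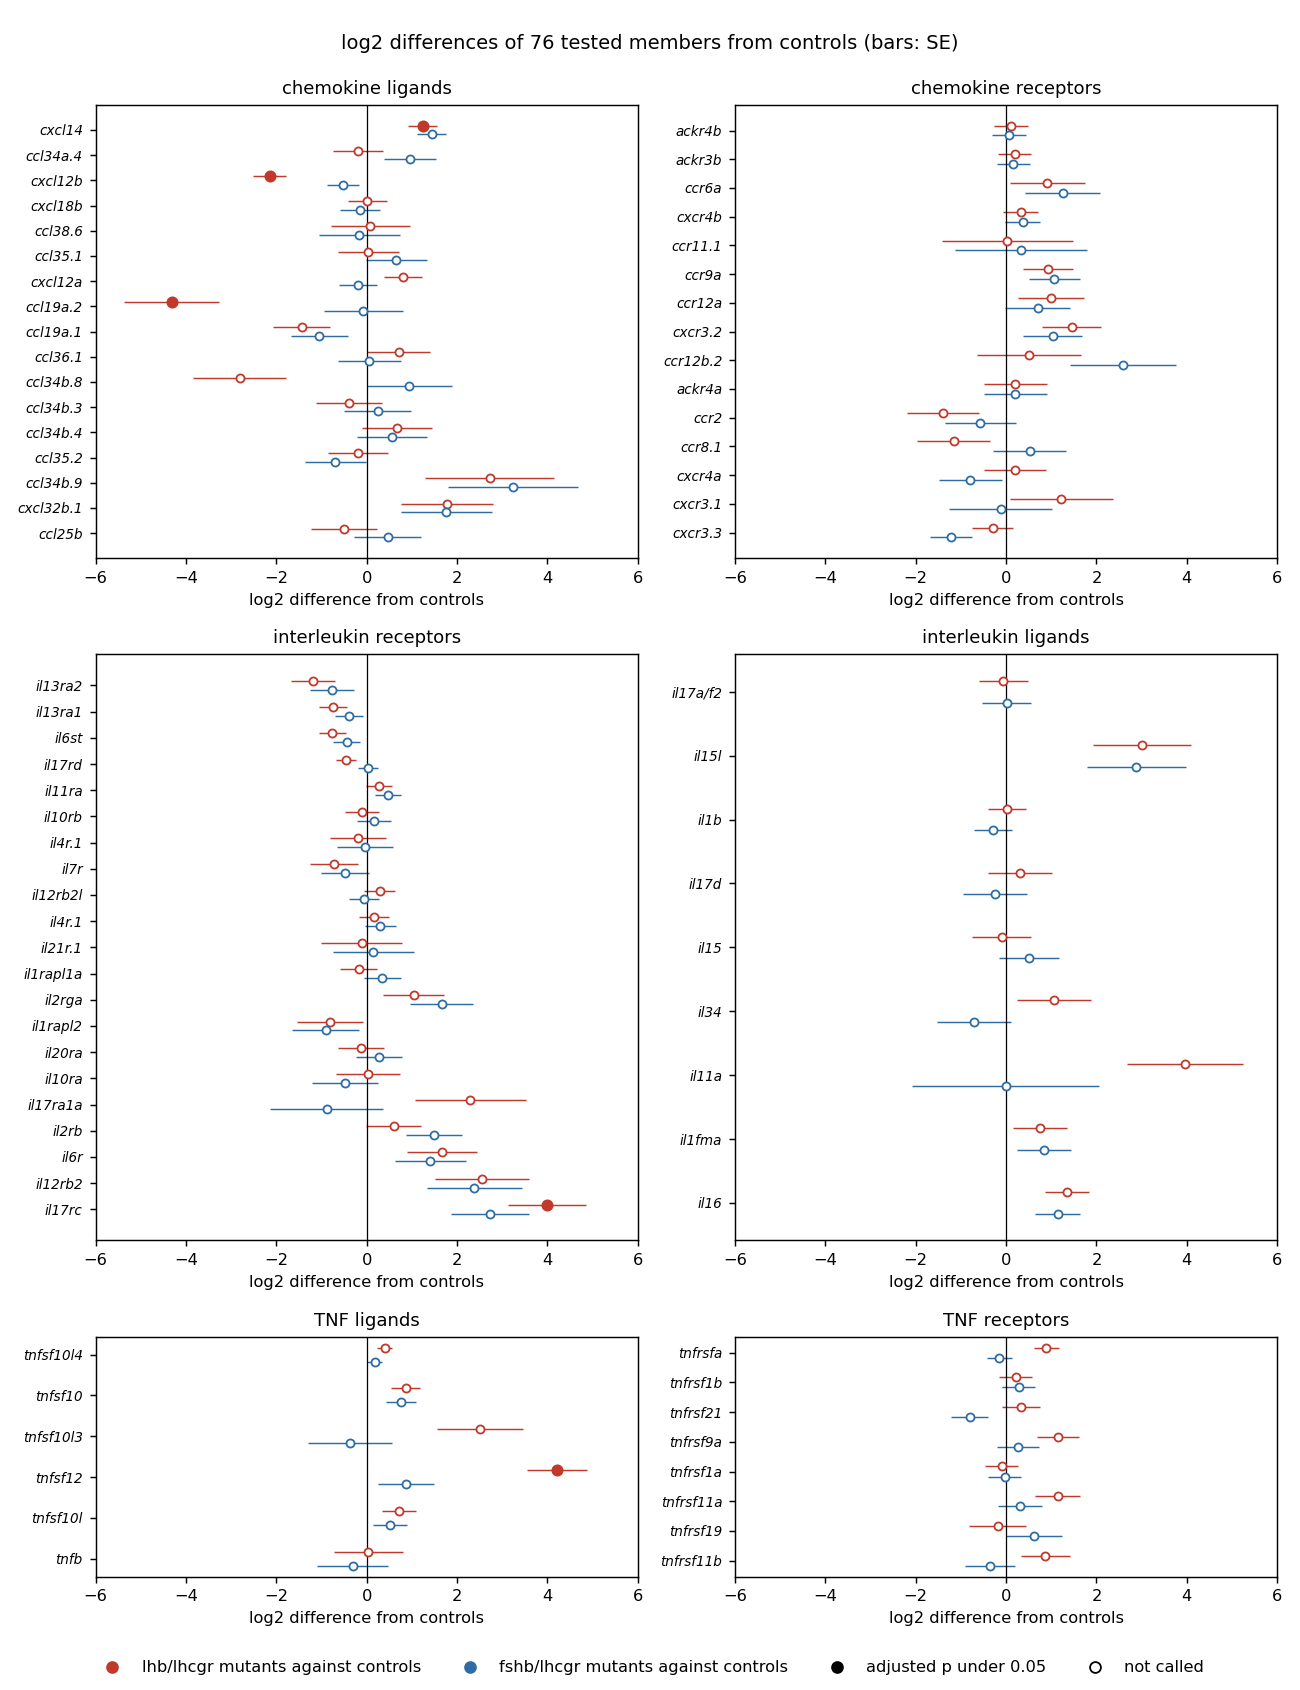
Log2 differences of the 76 tested members from controls, by class. Red points are lhb/lhcgr mutants and blue points fshb/lhcgr mutants, bars are the SE, and filled points have an adjusted p under 0.05. The 5 filled points are all red, and il4r.1 appears under each of its 2 gene identifiers.

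Of the 9 interleukin ligands none was called in any comparison by edgeR. In lhb/lhcgr mutants against controls 7 of 9 log2 differences were positive, with a median of 0.75 and 3 at an unadjusted p under 0.05. In fshb/lhcgr mutants against controls 2 had such a p, and between the mutants 2. These counts include il11a, whose direction the member rule fixed. Over all 19421 tested genes, 4829, 2291 and 3502 had such a p in the 3 comparisons. In the first comparison 50.7% of all tested genes were positive, with a median of 0.01. The il15l gene, related to interleukin-15, had 24.0, 22.4, 6.28 and 5.54 CPM in lhb/lhcgr mutants, 0.682, 25.8, 9.03 and 17.8 CPM in fshb/lhcgr mutants, and 1.54, 0.355 and 3.47 CPM in controls. The lhb/lhcgr mutants lay above the controls while falling into a high pair and a lower pair, and the fshb/lhcgr mutants spanned the whole range. The log2 difference of lhb/lhcgr mutants from controls was 3.01 (SE 1.09, adjusted p = 0.118, or 0.0338 in DESeq2 and 0.0468 without fshb/lhcgr mutant 1). That of fshb/lhcgr mutants was 2.88 (SE 1.09, adjusted p = 0.356).

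Il11a encodes interleukin-11, a cytokine that signals through Il11ra and the shared subunit gp130 (il6st). Its counts were 7, 19, 56 and 14 in lhb/lhcgr mutants, 0, 0, 0 and 4 counts in fshb/lhcgr mutants, and 1, 0 and 2 in controls. The gene is a member only through its lhb/lhcgr mutant libraries, so that its higher level there follows from the selection. It stays among the tested members, but its difference is given as a description, without p-value or interval. The ratio of scaled counts of lhb/lhcgr mutants to controls was 18.8, and fshb/lhcgr mutants were lower than lhb/lhcgr mutants by a ratio of 18.5. Its receptor genes overlapped between groups. Il11ra had 11.1 to 21.2 CPM in lhb/lhcgr mutants, 12.3 to 25.3 CPM in fshb/lhcgr mutants and 10.9 to 15.9 CPM in controls. Il6st had 30.8, 38.7, 78.2 and 57.4 CPM in lhb/lhcgr mutants, 56.3, 94.0, 53.4 and 52.6 CPM in fshb/lhcgr mutants, and 109, 84.1 and 68.0 CPM in controls. Its log2 difference of lhb/lhcgr mutants from controls was -0.76 (SE 0.30, adjusted p = 0.139).

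The inflammatory and macrophage ligands il1b and il34 were not called either. Il1b, the central inflammatory interleukin gene, had 4.46 to 17.7 CPM in lhb/lhcgr mutants, 6.87 to 8.73 CPM in fshb/lhcgr mutants and 6.53 to 14.5 CPM in controls. The log2 difference from controls was 0.03 in lhb/lhcgr mutants, against -0.28 in fshb/lhcgr mutants. Il34, whose product is a ligand of the macrophage receptor Csf1r, had 1.99, 1.71, 4.27 and 2.83 CPM in lhb/lhcgr mutants, 0.205, 1.25, 0.232 and 1.42 CPM in fshb/lhcgr mutants, and 2.34, 0.142 and 1.39 CPM in controls. The fshb/lhcgr mutants lay wholly below the lhb/lhcgr mutants (-1.78, SE 0.76, adjusted p = 0.237).

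Of the 21 interleukin receptors tested, 1 rose in lhb/lhcgr mutants against controls, and none was called in fshb/lhcgr mutants against either group. Over all tested genes, 2.89% rose in the first comparison. In fshb/lhcgr mutants 0.0721% were called against controls and 2.37% against lhb/lhcgr mutants. Il17rc (ENSDARG00000099902) encodes the subunit that pairs with Il17ra to bind interleukin-17 cytokines. It had 16, 39, 64 and 27 counts in lhb/lhcgr mutants, 17, 11, 8 and 9 counts in fshb/lhcgr mutants, and 1, 0 and 4 counts in controls. Both mutants lay above all controls and overlapped each other in CPM. No control reached the minimum count of the member rule, which favours a lower level in controls. The rise, its ratio and its interval are thus not free of the selection. Il17rc rose to 1.84 ± 0.682 CPM in lhb/lhcgr mutants, against 0.106 ± 0.131 CPM in controls (log2 difference 3.99, SE 0.87, adjusted p = 0.0188). The ratio of scaled counts was 17.1 (95% interval 7.18 to 53.6). The fshb/lhcgr mutants averaged 0.765 ± 0.272 CPM, a log2 difference from controls of 2.73 (SE 0.86, adjusted p = 0.282) and from lhb/lhcgr mutants of -1.26 (adjusted p = 0.333). The call was lost without lhb/lhcgr mutant 4 (adjusted p = 0.0545), control 1 (0.0763), or both lhb/lhcgr mutant 3 and 4 (0.109), and the difference ran from 3.46 without control 2 to 5.45 without control 3.

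The partner subunit gene il17ra1a, chosen for description after its values were seen, was not called. It had 0.181, 1.96, 5.35 and 2.83 CPM in lhb/lhcgr mutants, 0, 0.989, 0 and 0.124 CPM in fshb/lhcgr mutants, and 0.134, 0.426 and 1.01 CPM in controls. Its log2 difference of lhb/lhcgr mutants from controls was 2.29 (SE 1.23, adjusted p = 0.278), with 1 of the 4 libraries inside the range of the controls. The candidate ligand genes il17a/f2 and il17d, also picked after the values were seen, differed from controls by -0.06 and 0.31 in lhb/lhcgr mutants (adjusted p = 0.969 and 0.840).

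Interleukin-15 signals through Il2rb and the common gamma chain, of which il2rga is 1 copy. Il2rb had 0.483, 2.14, 1.49 and 1.45 CPM in lhb/lhcgr mutants, 3.75, 1.52, 3.78 and 1.24 CPM in fshb/lhcgr mutants, and 0.669, 0.993 and 1.07 CPM in controls. The fshb/lhcgr mutants lay above all controls, without a call (1.49, SE 0.62, adjusted p = 0.377). Il2rga, picked after the values were seen, did so too (1.66, SE 0.69, adjusted p = 0.380). The marker list of lymphocytes, on which these receptors are known best, summed to 4.20 to 7.95 CPM in lhb/lhcgr mutants, 2.93 to 5.93 CPM in fshb/lhcgr mutants and 3.48 to 5.29 CPM in controls, with cd8a and cd79b at 0 in every library.

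**Figure D4:**
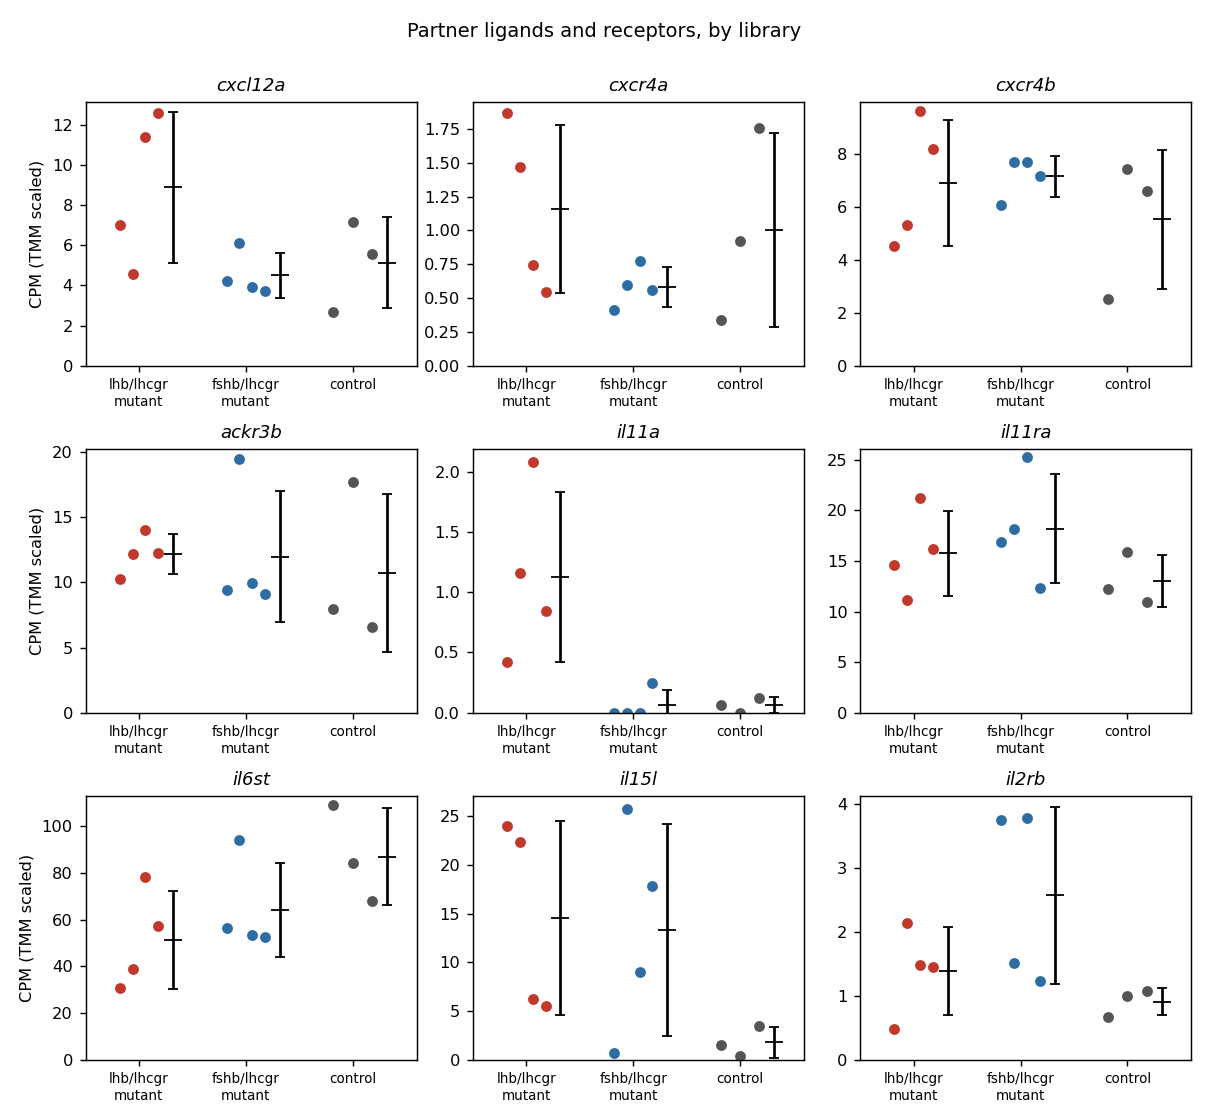
Partner ligands and receptors of the members described, in CPM by library. Points are libraries, with lhb/lhcgr mutants left, fshb/lhcgr mutants in the middle and controls right, and the black mark and bar are the mean and SD. None of the 9 genes was called in any comparison, and il11a, which met the member rule only through lhb/lhcgr mutant libraries, is near 0 elsewhere by that choice.

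The most abundant interleukin receptors had negative differences in lhb/lhcgr mutants that did not pass the test. Il13ra2, a decoy receptor gene, had 22.4, 22.3, 9.95 and 13.4 CPM in lhb/lhcgr mutants, 30.6, 24.8, 29.6 and 6.93 CPM in fshb/lhcgr mutants, and 65.8, 29.2 and 21.4 CPM in controls (-1.19 for lhb/lhcgr mutants, SE 0.49, adjusted p = 0.157). Il13ra1, the signalling subunit gene, had 14.0 to 18.2 CPM in lhb/lhcgr mutants, 12.6 to 30.8 CPM in fshb/lhcgr mutants and 19.1 to 39.1 CPM in controls. Its lhb/lhcgr mutants lay wholly below the controls (-0.75, SE 0.31, adjusted p = 0.156). Il17rd, known as Sef and an inhibitor of fibroblast growth factor signalling, had 24.3 to 41.3, 36.5 to 53.0 and 33.6 to 49.8 CPM in the same order of groups. The remaining named receptors, il10rb and il1rapl1a, overlapped between all groups, with log2 differences from controls of -0.10 and -0.18 in lhb/lhcgr mutants, and of 0.16 and 0.35 in the other mutants.

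Among the 6 TNF ligands, 1 rose in lhb/lhcgr mutants against controls, and all 6 log2 differences were positive, with a median of 0.79. Over all tested genes, 2.89% were called as higher, 50.7% were positive and the median was 0.01. The called gene, tnfsf12 (ENSDARG00000069376), encodes a homolog of the cytokine TWEAK, which in mammals acts through the receptor Fn14 on tissue repair, vessel growth and inflammation. It had 14.1, 12.3, 21.7 and 19 CPM in lhb/lhcgr mutants, 0.751, 2.31, 3.09 and 0.495 CPM in fshb/lhcgr mutants, and 0.335, 1.56 and 0.819 CPM in controls. Every lhb/lhcgr mutant lay far above every other library, and fshb/lhcgr mutants and controls overlapped. Tnfsf12 rose to 16.7 ± 4.32 CPM in lhb/lhcgr mutants, against 0.905 ± 0.618 CPM in controls (18.5-fold, log2 difference 4.21, SE 0.66, adjusted p = 0.00518). It was the member with the largest rise in this comparison, and the call held in all 22 alternatives (adjusted p of 1.51e-10 to 0.0441), with differences between 3.82 without control 1 and 4.83 without control 2. The fshb/lhcgr mutants averaged 1.66 ± 1.24 CPM, 10.1-fold lower than in lhb/lhcgr mutants (-3.34, SE 0.56, adjusted p = 0.00958). That difference held without any 1 library and was lost only without both lhb/lhcgr mutant 3 and 4 (-2.99, adjusted p = 0.120). Against controls, fshb/lhcgr mutants differed by 0.87 (SE 0.62, adjusted p = 0.616).

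The death ligand genes of the TRAIL type were the most abundant of the class. Tnfsf10l4 had 51.8, 41.9, 38.2 and 43.1 CPM in lhb/lhcgr mutants, 34.3, 35.8, 39.2 and 41.4 CPM in fshb/lhcgr mutants, and 37.7, 28.1 and 33.6 CPM in controls. All lhb/lhcgr mutants lay above all controls by a small margin, without a call (0.40, SE 0.17, adjusted p = 0.171). Tnfsf10 had 21.6, 27.3, 33.0 and 28.3 CPM in lhb/lhcgr mutants, 21.8, 37.8, 22.6 and 20.2 CPM in fshb/lhcgr mutants, and 8.37, 23.4 and 13.7 CPM in controls. Its log2 difference of lhb/lhcgr mutants from controls was 0.86 (SE 0.33, adjusted p = 0.117), and it was called without control 2, the highest control (1.32, adjusted p = 0.0275). Tnfsf10l and tnfb were not called, with log2 differences from controls of 0.72 and 0.04 in lhb/lhcgr mutants, and of 0.52 and -0.31 in the other mutants. Summed over the class, the levels of the 3 groups did not overlap, with 95.6, 91.1, 120 and 110 CPM in lhb/lhcgr mutants, 64.4, 84.7, 75.4 and 70.9 CPM in fshb/lhcgr mutants, and 52.1, 59.3 and 57.9 CPM in controls. Part of that order comes from tnfsf12 itself. Its level in each lhb/lhcgr mutant exceeds the gap between the sums of the mutants (84.7 against 91.1 CPM). The separation of the mutants is thus not independent of the tnfsf12 call.

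None of the 8 TNF receptors was called against controls by edgeR in either mutant. Between the mutants 1 of these receptors was called, beside 2.37% of all tested genes. Tnfrsfa (ENSDARG00000004451), the most abundant of the TNF receptors, had 31.9, 36.4, 59.1 and 52.3 CPM in lhb/lhcgr mutants, 18.3, 27.5, 20.1 and 21.9 CPM in fshb/lhcgr mutants, and 18.5, 33.8 and 20.5 CPM in controls. Fshb/lhcgr mutants lay wholly below lhb/lhcgr mutants, and 1 control reached into the range of the lhb/lhcgr mutants. Tnfrsfa averaged 21.9 ± 3.98 CPM in fshb/lhcgr mutants, against 44.9 ± 12.9 CPM in lhb/lhcgr mutants (log2 difference -1.03, SE 0.25, adjusted p = 0.0461). The call was lost without lhb/lhcgr mutant 3 (adjusted p = 0.139) or 4 (0.146), without any 1 fshb/lhcgr mutant (0.0523 to 0.131), without control 3 (0.0532), and with upper quartile scaling (0.0543), limma-voom (0.0545) or the length offset (0.0539). Leaving out both lhb/lhcgr mutant 3 and 4 gave -0.64 (adjusted p = 0.413). In lhb/lhcgr mutants against controls, which averaged 24.3 ± 8.34 CPM, the difference was 0.89 (SE 0.27, adjusted p = 0.0619), just short of a call. It passed without control 2 (0.0237), in DESeq2 (0.0180) and with scaling by library size only (0.0393).

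The receptor genes of TNF itself were not called and overlapped between all groups. Tnfrsf1a had 4.53 to 19.4 CPM in lhb/lhcgr mutants, 10.3 to 15.2 CPM in fshb/lhcgr mutants and 11.2 to 14.8 CPM in controls, and tnfrsf1b had 11.2 to 37.6, 20.2 to 29.2 and 14.5 to 28.0 CPM. Tnfrsf21, known as death receptor 6, had 16.7, 15.3, 35.4 and 25.1 CPM in lhb/lhcgr mutants, 13.4, 7.84, 9.88 and 11.1 CPM in fshb/lhcgr mutants, and 12.8, 33.1 and 9.45 CPM in controls. Fshb/lhcgr mutants lay wholly below lhb/lhcgr mutants (-1.13, SE 0.38, adjusted p = 0.136, or 0.0455 in DESeq2). Tnfrsf19 had 7.49, 6.05, 1 and 1.2 CPM in lhb/lhcgr mutants, 3.86 to 9.84 CPM in fshb/lhcgr mutants and 3.41 to 5.17 CPM in controls. The osteoprotegerin gene tnfrsf11b, whose product is a decoy for the ligand of the receptor RANK, stayed at or under 3.07 CPM and overlapped between groups.

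Levels of the members also moved with single libraries. Of the 77 members, 22 were highest in lhb/lhcgr mutant 3, 12 in fshb/lhcgr mutant 2 and 10 in fshb/lhcgr mutant 3, and no other library was highest in more than 7. The same shares over all tested genes were not computed, so these counts may not be particular to the members. The member rule uses raw counts, which favours genes high in lhb/lhcgr mutant 3, the library with the most counts. Summed over all members, the libraries had 571, 582, 902 and 745 CPM in lhb/lhcgr mutants, 612, 794, 740 and 596 CPM in fshb/lhcgr mutants, and 661, 696 and 622 CPM in controls. The 10 markers of macrophages and neutrophils were highest in lhb/lhcgr mutant 3 and 4, with 25.7, 44.0, 119 and 119 CPM in lhb/lhcgr mutants. They summed to 33.2, 62.1, 60 and 61.4 CPM in fshb/lhcgr mutants, and to 16.5, 51.7 and 44.2 CPM in controls. Fshb/lhcgr mutant 1 stood below fshb/lhcgr mutant 2 and 3 both in these markers and in the member sum. Fshb/lhcgr mutant 4 stood level with them in the markers and below them in the member sum. None of these markers was called in any comparison, and their median log2 difference from controls was 0.96 in lhb/lhcgr mutants, against 0.45 in the other mutants. Markers of erythrocytes summed to 64.1 to 139 CPM, 97.2 to 179 CPM and 28.5 to 84.0 CPM in the same order of groups. The part of these cells in the members' differences was not tested. Markers of the labelled follicle were present in every library, with granulosa genes at 465 to 782, 498 to 862 and 579 to 1370 CPM and oocyte genes at 2050 to 2890, 2940 to 3130 and 2340 to 3170 CPM, in the same order. Of 9 granulosa markers, 1 was called as higher in lhb/lhcgr mutants against controls, beside 2.89% of all tested genes. No oocyte marker was called in any comparison by edgeR.

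**Figure D5:**
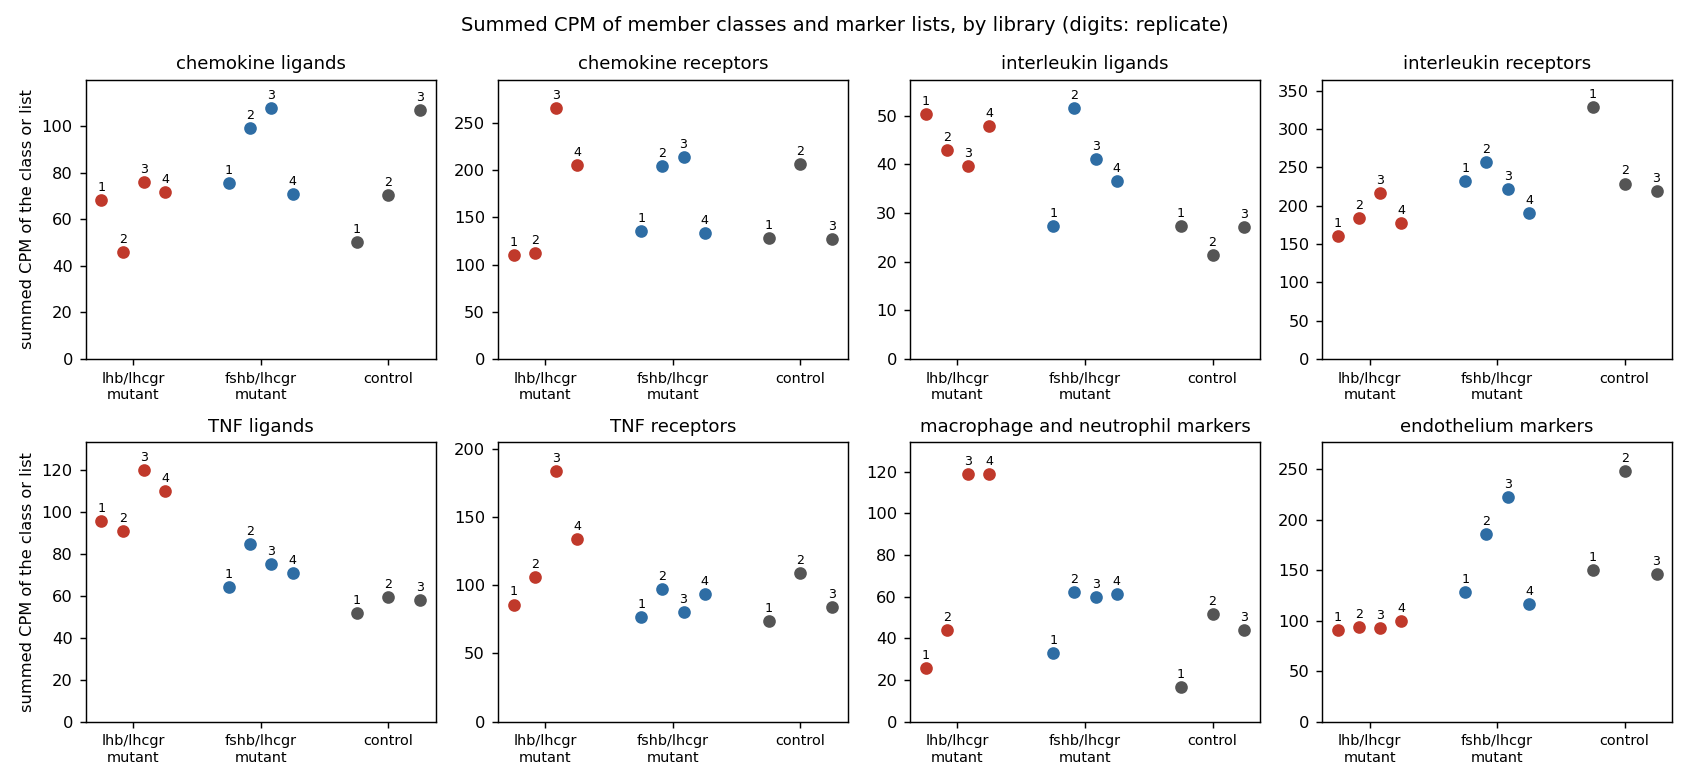
Summed CPM of each class of members and of the macrophage and neutrophil and endothelial marker lists, by library. Digits beside the points are replicate numbers, with lhb/lhcgr mutants left, fshb/lhcgr mutants in the middle and controls right. TNF ligand sums, which include the called gene tnfsf12, separate the 3 groups. In all lhb/lhcgr mutants, interleukin ligand sums lie above and interleukin receptor sums below those of all controls. Leukocyte markers are highest in lhb/lhcgr mutant 3 and 4. Chemokine receptors are highest in lhb/lhcgr mutant 3 (266 CPM). There, lhb/lhcgr mutant 4 (205 CPM) is level with fshb/lhcgr mutant 2 (204 CPM), fshb/lhcgr mutant 3 (214 CPM) and control 2 (206 CPM).

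The genes of the pathways that these receptors use are set beside the background of 7.34% of all tested genes called in lhb/lhcgr mutants against controls, and 2.37% between the mutants. Of 30 JAK-STAT and SOCS genes tested, 1 fell in lhb/lhcgr mutants against controls, socs6b of the SOCS family (-0.62, SE 0.16, adjusted p = 0.0307). Of 38 genes of NF-kB, TRAF and death domain adaptors, 1 rose, tradd, whose product couples TNF receptors to their signalling complex (0.68, SE 0.15, adjusted p = 0.0176). Its levels were 65.9 ± 7.88 CPM in lhb/lhcgr mutants, 55.6 ± 1.46 CPM in fshb/lhcgr mutants and 41.2 ± 1.88 CPM in controls, without overlap between any of the groups. Between the mutants, the NF-kB inhibitor and target gene nfkbiab was lower in fshb/lhcgr mutants (140 ± 12.4 CPM) than in lhb/lhcgr mutants (261 ± 39.7 CPM), with a log2 difference of -0.90 (SE 0.15, adjusted p = 0.00958). Of 22 interferon genes and targets, irf2 rose in lhb/lhcgr mutants against controls (1.66, SE 0.46, adjusted p = 0.0445), and irf1b, under 1 of its 2 gene identifiers (-1.59, SE 0.43, adjusted p = 0.0421) and the antiviral gene mxa (-2.27, SE 0.60, adjusted p = 0.0377) fell. Of 16 genes of interleukin-1 and Toll-like receptor signalling none was called by edgeR. No gene of these 4 lists was called in fshb/lhcgr mutants against controls.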

How the data were processed

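Poly-A RNA of full-grown follicles was sequenced in 11 libraries (TruSeq kit, per the labels' protocols). The authors deposited raw counts per gene, which were used as deposited, and FPKM values, in which the authors divided each gene's reads by 1 fixed length. The submitters' processing notes name DESeq2 1.20.0. Aligner, counter, strand setting and genome build: not given in the sources used here. No coordinates or sequences are therefore printed, and near-identical copies, overlapping and antisense genes could share reads. The authors' own comparison tables were not used.

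Counts were tested with edgeR 4.0.16 in R 4.3.3: filterByExpr (minimum count 10, minimum total 15), TMM factors, 1 robust quasi-likelihood fit (glmQLFit, glmQLFTest) (1 mean per group, all 11 libraries), and Benjamini-Hochberg adjustment over 19421 genes, with a threshold of 0.05. All tests were 2-sided, and the common biological coefficient of variation was 0.384. Groups and replicate numbers came from the sample labels. Ratios of summed counts, except those of il11a, carry exact intervals of 95%, which, like all counting intervals, cover counting error only. The scripts were tested on simulated data.

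Alternatives were RLE and upper quartile factors, library size only, no filter, a minimum of 1 CPM in 3 libraries, limma-voom (limma 3.58.1), DESeq2 1.42.0, fits of 2 groups only, replicate number as a block, an offset for gene length, each library left out in turn, and lhb/lhcgr mutant 3 and 4 left out together. Genes named with values are the members called in any comparison, the 5 with the smallest p in each, the 8 with the highest mean FPKM, and a fixed list of ligands and receptors. Others were chosen after their values were seen, and are named so or given only in lists. The members, the pathway and marker lists (from textbook knowledge) and the alternatives were chosen with earlier results of these data known. RefSeq annotation of the assembly GRCz12tu served only for names and neighbours, with 75 of 77 members matched by symbol.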

Additional observations from a re-analysis of the deposited data

Results flagged for a closer look

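In 4 of 72 sets of 4 mutant libraries examined (36 named genes in each mutant), 1 library lay outside the others by more than Dixon's critical value at 95%. For normally distributed values, chance gives about 1 in 20 such sets. Fshb/lhcgr mutant 2 was the outlying library in 3 of the 4 flagged sets. It had 37.8 CPM of tnfsf10, against 20.2 to 22.6 CPM in the other fshb/lhcgr mutants, 19.5 CPM of ackr3b, against 9.1 to 9.95 CPM, and 94 CPM of il6st, against 52.6 to 56.3 CPM. The last was il11a in fshb/lhcgr mutant 4, at 0.248 CPM from 4 counts where the others had 0. With all others at 0, any count would have been flagged, so this set is not informative.

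The mutants differed from each other, by the edgeR test of that difference, in 4 named genes. The log2 differences of fshb/lhcgr mutants from lhb/lhcgr mutants were 1.64 for cxcl12b, 4.24 for ccl19a.2, -3.34 for tnfsf12 and -1.03 for tnfrsfa. Of these, tnfsf12 alone kept its call without any 1 library.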

How the results depend on the processing

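Of 108 gene results (36 named genes in 3 comparisons), 9 were called. None of the 9 changed sign under any of the alternatives tried, and 3 kept their call without any 1 library. Of the 99 uncalled results 44 changed sign under some alternative and 6 were called under some. In lhb/lhcgr mutants against controls the 5 called members became 9 in DESeq2, 3 in limma-voom, 1 without both lhb/lhcgr mutant 3 and 4, and 2 to 6 without any 1 library. In fshb/lhcgr mutants against controls 0 became 1 in DESeq2 and stayed 0 without any 1 library. Between the mutants 4 became 7 in DESeq2, 1 in limma-voom, 0 without both lhb/lhcgr mutant 3 and 4, and 1 to 5 without any 1 library. The replicate block gave 4, 0 and 3 called members in these comparisons. Of 10 pairs of libraries with the same replicate number, 3 had a correlation of deviations above 0.1 (-0.084 to 0.12 over the pairs). Of 11 libraries, 5 correlated best with a library of their own number. No chance level was computed, so these values do not decide whether the replicate numbers pair the libraries.

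Over all genes, 1426 calls in lhb/lhcgr mutants against controls became 2729 in DESeq2, 817 with only these groups, 943 with the replicate block, 802 with the length offset, 129 without both lhb/lhcgr mutant 3 and 4, and 297 to 1448 without any 1 library. In fshb/lhcgr mutants against controls 14 became 24 without a filter, 278 in DESeq2, 6 in limma-voom, 8 with the block and 1 to 22 without any 1 library. Between the mutants 460 became 1403 in DESeq2, 889 with only these groups, 27 without both lhb/lhcgr mutant 3 and 4, and 104 to 795 without any 1 library. Scaling by library size only moved the median of all genes to 0.12 and -0.15 in the first and the last comparison, with splits of 848 higher and 578 lower, against 562 and 864, and of 200 higher and 318 lower, against 282 and 178. The cause of these shifts was not tested. Longer genes had relatively higher log2 CPM in controls (slopes on log2 gene length of 0.0304 to 0.142) than in mutants. The slopes were -0.0997 to 0.00187 in lhb/lhcgr mutants and -0.0266 to 0.00958 in fshb/lhcgr mutants. The length offset takes out this trend between the groups, and its cause was not tested. Counts under about 10 in a library, as in ccl19a.2, il11a, il17rc and ccl34b.8, limit the precision of their differences.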

Other observations

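In the RefSeq order of genes, 1 direct neighbour of a called member was itself called in lhb/lhcgr mutants against controls. It was slit3, beside cxcl14, which rose (log2 difference 1.5, edgeR adjusted p = 0.0273). Its difference in fshb/lhcgr mutants against controls was 0.43 (adjusted p = 0.671), whereas that of cxcl14 was 1.44. In lhb/lhcgr mutants against controls, the tested direct neighbours of the other called members did not pass. They were chd3 beside tnfsf12 (0.39, adjusted p = 0.478), hmox2a beside cxcl12b (0.42, adjusted p = 0.285), creld1a beside il17rc (1.03, adjusted p = 0.241), unc5da beside tnfrsfa (0.98, adjusted p = 0.311), and tctn2 (0.30, adjusted p = 0.521) and ccl19a.1 beside ccl19a.2. Tnfrsfa was called only between the mutants, where unc5da differed by -0.98 (adjusted p = 0.341).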
